A study of Mus musculus with 4 samples.

Results

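The genes described here are 9 receptor genes of natural killer (NK) cells, Klra4, Klra8, Klrb1c, Ncr1, Klre1, Klrc1, Klrc2, Klrd1 and Klrk1, chosen by name out of the 33696 genes counted in the series and read in cells gated as NK cells and CD8+ T cells. NK cells are innate lymphocytes that kill infected or altered cells, and whether a target is killed depends on the balance between activating and inhibitory receptors on their surface. The liver is rich in such cells, both circulating NK cells and the related resident type 1 innate lymphoid cells (ILC1), and activated or memory CD8+ T cells can take up some of the same receptors. Klra4 (Ly49D) and Klra8 (Ly49H) encode activating lectin-like receptors that signal through the adaptor Tyrobp (DAP12), and Klra8 recognises a protein of mouse cytomegalovirus. Klrb1c encodes the activating receptor used to define NK cells in C57BL/6 mice, and Ncr1 encodes the natural cytotoxicity receptor NKp46. Klrd1 encodes CD94, the partner chain of the inhibitory receptor from Klrc1 (NKG2A) and of the activating receptor from Klrc2 (NKG2C), both of which bind the nonclassical MHC class I molecule from H2-T23. Klrk1 encodes NKG2D, an activating receptor for stress-induced ligands that signals through Hcst (DAP10), and Klre1 encodes a receptor chain that pairs with Klri1 or Klri2.

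The cells came from livers of male C57BL/6J mice that all received, from young adulthood, the FPC diet, which holds fructose, palmitate, trans-fat and cholesterol. Over the first 24 weeks the cholesterol content was 0.05% in the low arm and 1.25% in the high arm. Both arms then ate the 0.05% form for 8 weeks. Non-parenchymal cells were taken by fine needle aspiration (FNA) at week 24, before that change (libraries P-LC24 and P-HC24), and from the same animals at week 32 (I-LC32 and I-HC32). Each of the 4 libraries pooled 12 biopsies of 3 mice, so each condition was measured once and no test between conditions was possible. None of the samples analysed here is from a mouse on a diet without the FPC components. The comparison of P-HC24 with P-LC24 (Progression, Prog) asks what high cholesterol did, and that of I-HC32 with I-LC32 (Intervention, Int) asks what remained after 8 weeks of lowered cholesterol. All intervals are 95% intervals that cover counting error only and leave out the spread between mice.

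After filtering, 4930 to 6978 cells per library were kept, with 38590989 to 77373180 unique molecular identifiers (UMIs, each marking 1 captured RNA molecule). Any pair of libraries shared 17 to 41 cell barcodes, and of the gated NK cells 0 to 3 per library and of the CD8+ T cells 1 to 8 had such a barcode. None of the 28 ratios of the receptors between arms moved beyond its interval when those cells were left out, and ratios between weeks, within subsets of a gate and of other genes were not recomputed. In the order P-LC24, P-HC24, I-LC32, I-HC32, which is used throughout, the NK gate held 226, 91, 140 and 58 cells, with a median of 4919 to 6015 UMIs per cell. The gate used none of the 9 receptors. All 11 NK marker genes were detected in at least 25% of its cells in each library, but 8 of them are the genes that define the gate. The gate also excluded CD3 UMIs, so their absence was fixed in advance. Of 6 marker genes of type 2 and type 3 innate lymphoid cells, 2 reached 25% of cells in each library. Of 5 macrophage and monocyte genes, 1 to 2 did. Cd4 was at 0, and haemoglobin UMIs differed widely. As counts per total UMIs of the gate, scaled to CPM, they stood at 6904, 620, 13590 and 134 CPM for Hbb-bs and Hba-a1 together. Removing haemoglobin genes from the totals left the same 28 ratios within their intervals. The CD8 gate held 634, 618, 816 and 352 cells, and the B cells of each library (2890 to 4318) served to measure free RNA.

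Of the 9 genes, 8 lie in the NK gene complex, between 128755448 and 130106938 on chromosome 6 (GRCm39), a stretch of 1351 kb. In order along the chromosome these are Klrb1c (128755448-128766178), Klre1 (129554868-129562791), Klrd1 (129568677-129575738), Klrk1 (129587286-129600827), Klrc2 (129624459-129637652), Klrc1 (129642978-129655936), Klra4 (130020690-130044294) and Klra8 (130092152-130106938). Klre1 and Klrd1 are on the plus strand and the other 6 on the minus strand. Ncr1 alone lies elsewhere, on the plus strand of chromosome 7 at 4340710-4348171. Klra4 and Klra8 are close relatives, and the bases just upstream of both genes are shown because these 2 genes had the most uneven counts from cell to cell. The sequences are RefSeq promoter sequences placed by exact match in GRCm39, 5′ to 3′ on the minus strand, and capitals mark the bases that differ between them.
Klra4, chr6:130044311-130044430: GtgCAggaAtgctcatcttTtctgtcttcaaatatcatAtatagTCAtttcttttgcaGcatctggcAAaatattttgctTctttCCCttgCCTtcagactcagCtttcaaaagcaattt
Klra8, chr6:130106939-130107058: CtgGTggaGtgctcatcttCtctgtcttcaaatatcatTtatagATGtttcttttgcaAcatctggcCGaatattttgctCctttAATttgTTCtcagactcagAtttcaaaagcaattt
These 2 stretches differed at 20 of 120 bases, an identity of 83.3%. The longest open reading frames of their transcripts were 67.7% identical over all alignment columns, gaps included. The frames of Klra8 and Klra7, a neighbouring gene of the same family, were 75.5% identical. The Klra4 frame was the longest (942 bases against 801 for Klra8 and 843 for Klra7), which adds gap columns. Identical columns of Klra8 numbered 650 with Klra4 and 641 with Klra7, so the percentages do not rank the pairs.

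Klrc1 and Klrc2 shared 81.8% of the bases of their longest reading frames, but their upstream sequences could not be matched in the same way, with 39.5% identity at the best ungapped placement. The upstream stretch of Klrc1 is shown with ACCACA, the reverse complement of TGTGGT and the core motif bound by RUNX factors, in capitals.
Klrc1, chr6:129655937-129656056 (minus strand): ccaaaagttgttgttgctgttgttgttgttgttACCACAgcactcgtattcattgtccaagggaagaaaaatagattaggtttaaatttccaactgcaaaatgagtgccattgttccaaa
TGTGGT or ACCACA occurred within 250 bases upstream of the RefSeq start in 6 of the 8 genes with a promoter in the table (Klrb1c, Ncr1, Klre1, Klrc1, Klrc2 and Klrk1) and, counted per promoter, in 8 of their 12 promoters and 14.0% of all 32851. TCACAC or GTGTGA, a T-box motif, occurred in 2 of the 8 (Ncr1 and Klre1), that is 3 of the 12 promoters against 12.3% of all, and the letters of these 2 motifs do not overlap each other. Klra4 and Klra8 held neither string in this window. Reads near the transcript end can be shared between relatives. Of the 90-base windows in the last 500 bases of the transcripts, 22.0% of those of Klrc1 also occurred in Klrc2 and 6.36% of those of Klrc2 in Klrc1 or Klrc3, so the division of counts between Klrc1 and Klrc2 is uncertain. For the other 7 genes this share was 0 to 1.54%.

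In NK cells all 9 receptors were abundant, and together they took up 7136, 7785, 5946 and 6283 CPM. The median NK cell held UMIs of 7 of the 9 genes in every library. The assay counts 1 tag at the 3′ end of each molecule, so levels of different genes are given per molecule and are not scaled to length. Klre1 stood at 1038, 1109, 858 and 891 CPM. Klrd1 stood at 961, 1189, 864 and 956 CPM, and Klrk1 at 868, 898, 1054 and 1150 CPM. These 3 receptor chains made up the leading group at week 32, and each was detected in 89.3% to 100% of NK cells of a library. Klrb1c had 936, 889, 698 and 705 CPM, with 89.7% to 98.9% of cells positive. Ncr1 had 759, 785, 704 and 648 CPM, with 82.8% to 96.0% of cells positive. Both therefore marked nearly all gated cells, although neither was used to choose them.

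Klrc2 (433, 352, 348 and 357 CPM) and Klrc1 (319, 254, 255 and 380 CPM) were the least abundant of the 9 in each library. Klra4 had 943, 1230, 594 and 691 CPM and Klra8 had 879, 1078, 572 and 505 CPM. The place of this pair in the order depended on the library. Klra4 was the highest of the 9 genes in P-HC24, where its interval overlapped that of Klrd1 next to it, and it was sixth in I-LC32. In P-LC24 the intervals of neighbours overlapped from Klre1 at the top down to Klrk1 in sixth place, with gaps only around Ncr1, Klrc2 and Klrc1. In I-HC32, the library with the fewest NK cells, every gene overlapped the next.

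**Figure D1:**
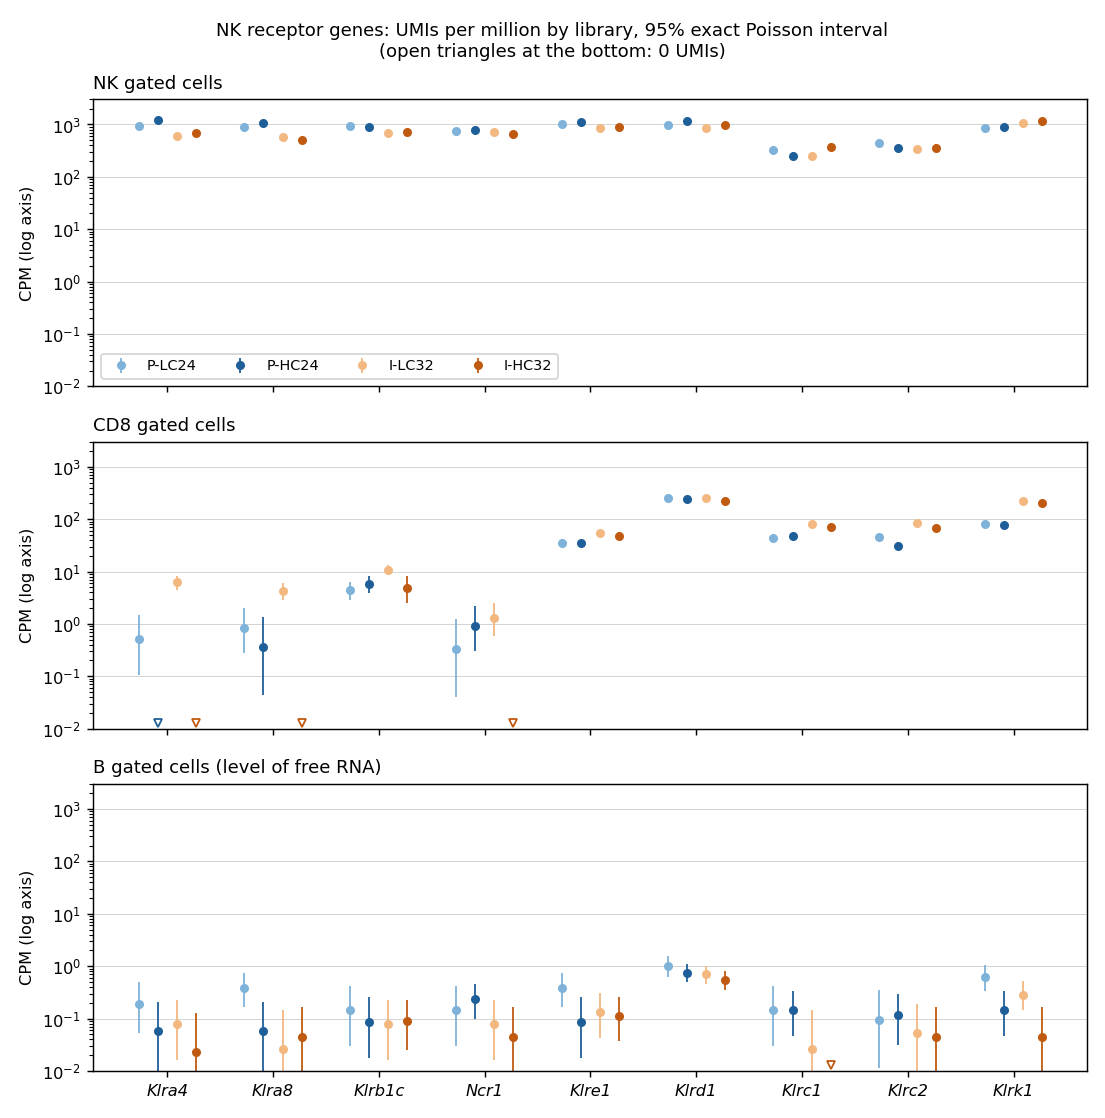
Level of each of the 9 genes (CPM, logarithmic axis) in NK, CD8 and B gated cells, 1 point per library with its 95% Poisson interval. In NK cells the 9 genes lie between 254 and 1230 CPM, in CD8+ T cells Klrd1 is highest at 222 to 259 CPM, and in B cells the highest value is 1.0 CPM.

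At week 24, NK cells of the high cholesterol library had higher levels of Klra4, Klra8 and Klrd1 and lower levels of Klrc1 and Klrc2 than those of the low cholesterol library, each by at least 1.2-fold in CPM, although as mean UMIs per cell the directions of Klra8 and Klrd1 turned. Klra4 differed by 0.38 (0.24 to 0.53) on the log2 scale, Klrd1 by 0.31 (0.16 to 0.45) and Klra8 by 0.29 (0.14 to 0.44). Klrc1 differed by -0.33 (-0.63 to -0.03) and Klrc2 by -0.30 (-0.56 to -0.05). Differences of this size were common among all genes. Of 3437 genes compared (detected in 10% or more of cells in one of the libraries, with 100 or more UMIs in the pair), 20.9% were at least 1.2-fold higher and 38.4% at least 1.2-fold lower, against 3 and 2 of the 9 receptors. Among the 490 genes with at least as many UMIs as the least counted receptor, these shares were 32% and 31.8%. The shares of the receptors past the fold were thus close to those of other well counted genes. The median ratio of all 3437 genes was -0.13, that of the 9 receptors 0.05, and the summed receptor level differed by 0.13 (0.07 to 0.18).

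Klre1 (0.10), Klrk1 (0.05), Ncr1 (0.05) and Klrb1c (-0.07) differed by less than 1.2-fold in this comparison, and their intervals included 0. Scaling mattered for the direction. With a size factor that sets the median gene to no difference, 3 of 9 receptors were higher and none was 1.2-fold lower. As mean UMIs per cell, with a median depth of 4919 UMIs per NK cell in P-HC24 and 6015 in P-LC24, no receptor was higher, 6 were lower, Klrd1 stood at -0.056 and Klra8 at -0.069. The makeup of the gate also differed, since 56.6% of NK cells in P-LC24 and 52.7% in P-HC24 held a UMI of Eomes, the transcription factor of conventional NK cells. Within cells with Eomes (128 and 48), a restriction added after seeing the data, no receptor passed 1.2-fold in either direction. There Klra4 stood at 0.16, Klra8 at 0.07, Klrd1 at 0.21, Klrc1 at -0.07 and Klrc2 at 0.17, the last with its direction turned.

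At week 32, after both arms had eaten low cholesterol for 8 weeks, Klrc1 was the single receptor past 1.2-fold in NK cells. It had 380 CPM (133 UMIs) in I-HC32 and 255 CPM (209 UMIs) in I-LC32, a log2 ratio of 0.57 (0.25 to 0.90). Among 2245 genes compared, 20.7% were higher and 19% lower by that fold, against 1 and 0 of the 9 receptors. Among the 512 genes counted at least as well as the lowest receptor, 14.1% were higher and 14.5% lower. The other 8 receptors ranged from -0.18 for Klra8 to 0.22 for Klra4, all with intervals that included 0. The summed level of all 9 differed by 0.08 (0.006 to 0.15), beside a median of 0.02 over all genes. Within Eomes cells (68 in I-LC32 and 23 in I-HC32), Klrc1 stood at 0.82, Klra4 at 0.99 and Ncr1 at -0.54, so 2 receptors were higher and 1 lower, and these values rest on few cells. ILC1 marker genes were lower in P-HC24 than in P-LC24 and higher in I-HC32 than in I-LC32, as Klrc1 was. The sum of Cxcr6, Itga1, Il7r, Tmem176b and Tnfsf10 in NK cells was 271, 117, 388 and 600 CPM, with Cxcr6 at 0 in P-HC24, and the part of this in the Klrc1 difference was not tested beyond the Eomes restriction.

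**Figure D2:**
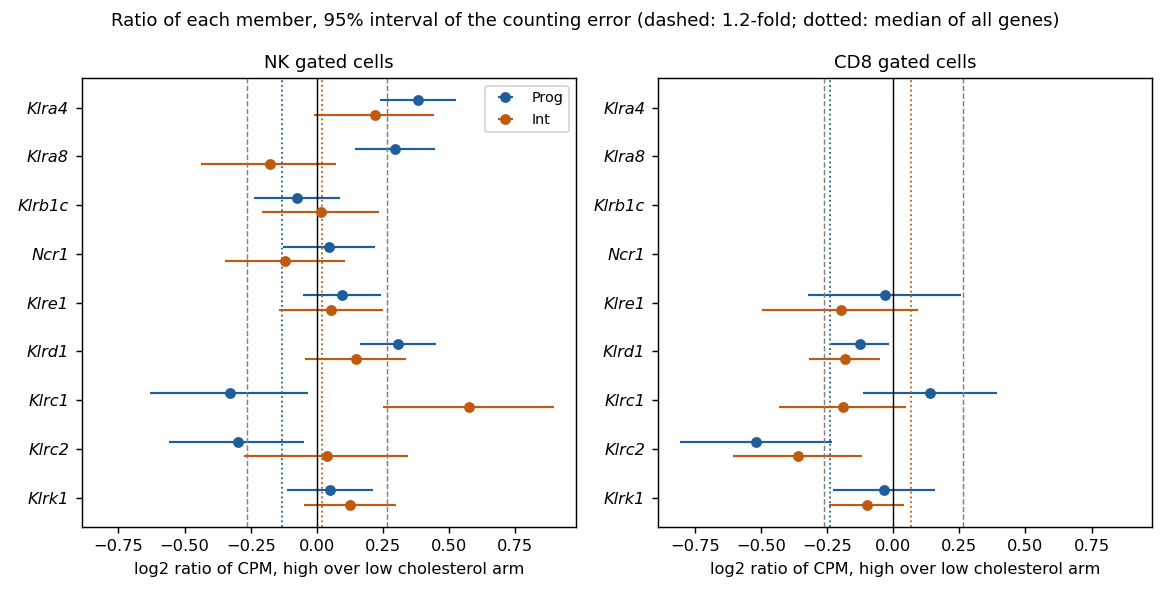
Log2 ratio of the level in the high over the low cholesterol arm for each receptor in NK cells (left) and, for the 5 receptors with enough UMIs, in CD8+ T cells (right), with 95% counting intervals; dashed lines mark 1.2-fold and dotted lines the median of all genes. In NK cells Klrc1 lies at -0.33 in Prog and 0.57 in Int, and in CD8+ T cells Klrc2 is the lowest in both, at -0.52 and -0.36.

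Klra4 and Klra8 were carried by a subset of NK cells and at high levels there. Klra4 was detected in 45.1%, 53.8%, 37.1% and 29.3% of NK cells, with up to 43 UMIs in a cell, and Klra8 in 52.7%, 57.1%, 39.3% and 43.1%, with up to 41. Positive cells held 9.37 to 14.2 Klra4 UMIs on average, against 3.12 to 3.91 for Klrc1, which was found in a similar share of cells. After each cell was thinned to 2000 UMIs, the variance of Klra4 over its mean was 4.52, 4.42, 5.41 and 5.98, and that of Klra8 was 4.26, 4.29, 4.30 and 4.13. Between 95.4% and 99.4% of genes with a like mean had a lower value in the same library. The other 7 receptors had values of 0.88 to 2.16, beside 1, the value of counts scattered at random over cells. The highest of these was Klrc1 in P-HC24, above 98% of genes with a like mean, and in the other libraries Klrc1 was above 33.2% to 90.6% of them. Because molecules of Klra4 and Klra8 came in such clusters, the Poisson intervals of their ratios are too narrow. The same holds, less strongly, for other receptors with values above 1, such as Klrc1, whose Prog interval ended near 0. In thinned CD8+ T cells the value was 1.88, 2.91, 2.07 and 2.88 for Klrk1 and 1.66, 1.33, 1.37 and 1.66 for Klrc2. The share of Klra4-positive cells in P-HC24 (43.1% to 64.4%) overlapped that in P-LC24 (38.5% to 51.9%), as did that of Klra8 (46.3% to 67.5% and 45.9% to 59.3%).

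Both Klra genes tended to occur in the same cells. In thinned NK cells, Klra8 was detected in 68.8%, 60.9%, 59.6% and 81.3% of Klra4-positive cells and in 27.8%, 39.5%, 22.7% and 21.6% of Klra4-negative cells. Cells with both numbered 64 of 219, 28 of 89, 28 of 135 and 13 of 53. Cells with neither made up 41.6%, 29.2%, 50.4% and 54.7%, so none of the libraries held a uniform population. In each library the intervals of the Klra8 shares in Klra4-positive and Klra4-negative cells were apart except in P-HC24, where 45.4% to 74.9% met 25.0% to 55.6%. Klrc1, the inhibitory receptor, showed the opposite arrangement. It was detected in 18.3%, 17.4%, 14.9% and 25.0% of thinned Klra4-positive cells and in 50%, 41.9%, 40.9% and 59.5% of Klra4-negative cells. Unthinned, the shares were 29.4%, 22.4%, 21.2% and 29.4% against 72.6%, 57.1%, 63.6% and 70.7%. The intervals of the thinned Klrc1 shares met in P-HC24 (7.82% to 31.4% and 27.0% to 57.9%) and in I-HC32 (7.27% to 52.4% and 42.1% to 75.2%). Unthinned, they met in I-HC32 only (10.3% to 56.0% and 54.5% to 83.9%).

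**Figure D3:**
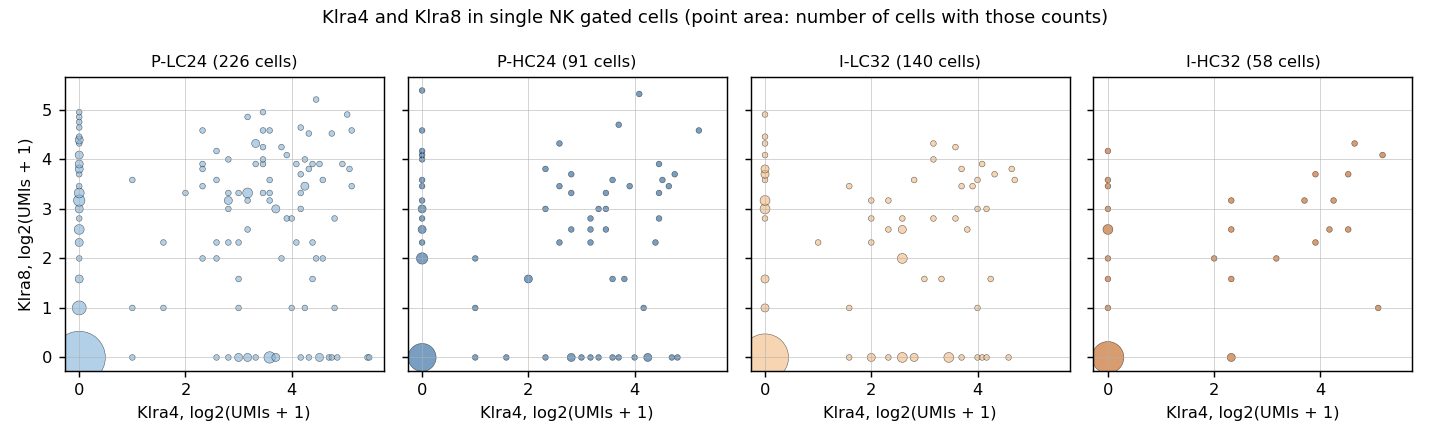
UMIs of Klra4 (x axis) and Klra8 (y axis) in single NK cells, both as log2(UMIs + 1), by library; the area of a point gives the number of cells with those counts. A group of cells without either gene (84 in P-LC24) stands apart from cells with one or both, and the highest counts in a cell are 43 UMIs of Klra4 in P-LC24 and 41 of Klra8 in P-HC24.

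A similar split by share of cells was seen along the axis from NK cells to ILC1, least clearly in P-HC24. Gated cells without an Eomes UMI but with Cxcr6, Itga1 or Il7r, genes of ILC1, numbered 41, 9, 27 and 17, or 18.1%, 9.89%, 19.3% and 29.3% of the gate. In these cells Klra4 was detected in 9.76%, 33.3%, 11.1% and 11.8%, and Klra8 in 7.32%, 22.2%, 7.41% and 11.8%. Cells with Eomes had Klra4 in 55.5%, 56.3%, 42.6% and 39.1% and Klra8 in 60.2%, 58.3%, 52.9% and 69.6%. The intervals of these shares overlapped for both genes in P-HC24 and for Klra4 in I-HC32. Klra4 stood at 206, 650, 169 and 163 CPM in the cells with ILC1 genes and 1165, 1306, 629 and 1252 CPM with Eomes. Klra8 stood at 152, 1049, 111 and 77.6 CPM against 1050, 1105, 761 and 863 CPM. Its levels were thus similar in P-HC24. Klrc1 ran the other way, in 82.9%, 66.7%, 59.3% and 76.5% of the cells with ILC1 genes and in 46.9%, 37.5%, 44.1% and 39.1% of cells with Eomes. The intervals of these Klrc1 shares were apart only in P-LC24 (67.9% to 92.8% and 38.0% to 55.9%). The shares are unthinned, and the cells with ILC1 genes were deeper. Their median depth was 7384, 5366, 6050 and 7305 UMIs, against 6273, 4916, 6002.5 and 5890 in cells with Eomes. The Klrc1 level was 536, 483, 359 and 442 CPM against 241, 229, 178 and 313 CPM. Klrd1, the partner of the Klrc1 product, stood at 876, 902, 714 and 970 CPM in the cells with ILC1 genes and 963, 1113, 879 and 856 CPM in those with Eomes. Klrc2 was higher in the cells with ILC1 genes in P-LC24, I-LC32 and I-HC32 (657 against 360, 402 against 322 and 411 against 285 CPM) and lower in P-HC24 (315 against 406 CPM), where the group held 9 cells.

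**Figure D4:**
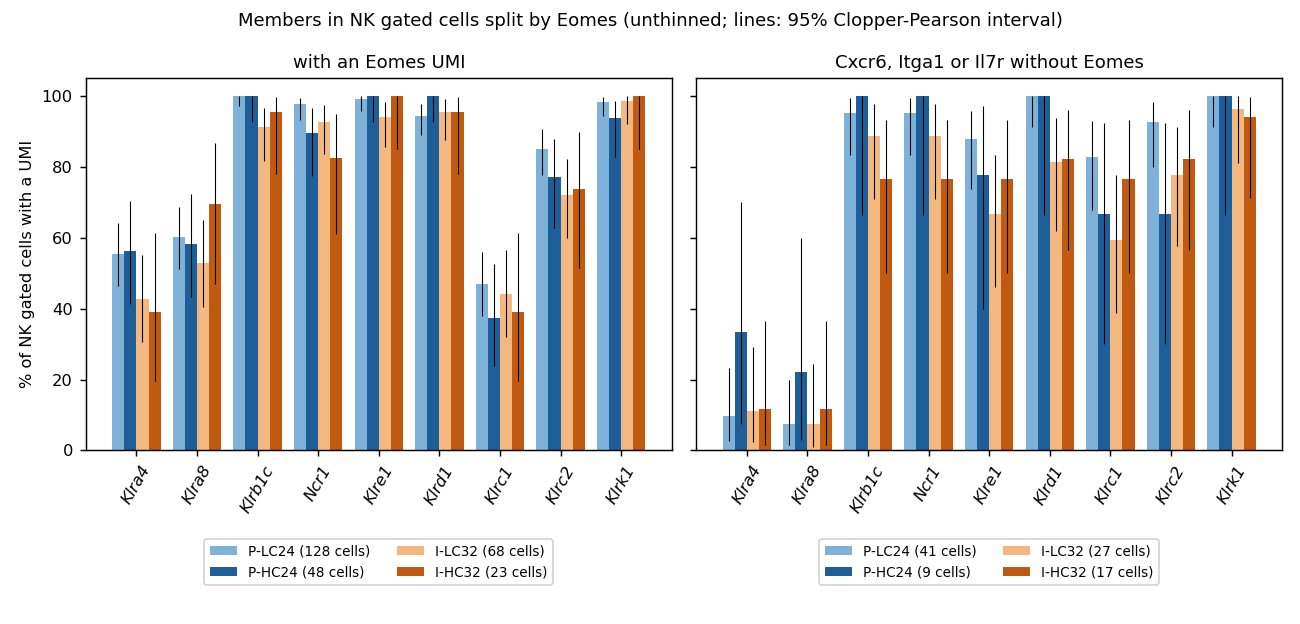
Percentage of NK gated cells with a UMI of each receptor, in cells with Eomes and in cells without Eomes that hold Cxcr6, Itga1 or Il7r, by library, unthinned, with 95% Clopper-Pearson intervals. Klra4 and Klra8 are at 7.32% to 33.3% in the latter and 39.1% to 69.6% in the former. Klrc1 is higher in the latter, with intervals apart only in P-LC24. The Klra4 and Klra8 intervals of the 2 groups overlap in P-HC24, and those of Klra4 also in I-HC32.

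In CD8+ T cells the receptors formed 3 tiers. Klrd1 was present in most cells, Klrk1, Klrc1, Klrc2 and Klre1 in a minority, and Klrb1c, Klra4, Klra8 and Ncr1 in very few. Klrd1 had 259, 237, 252 and 222 CPM and was detected in 73.8%, 73.9%, 67.5% and 60.5% of CD8+ T cells. Klrk1 had 80.0, 78.1, 221 and 206 CPM and was detected in 20.8%, 18.6%, 38.2% and 31.8%. Its level was thus similar between arms at each week and much higher in both week 32 libraries. Klrc1 had 44.0, 48.4, 82.0 and 71.9 CPM (15.3%, 16.5%, 29.4% and 23.9% of cells), and Klrc2 had 44.7, 31.2, 86.1 and 67.2 CPM (16.6%, 12.9%, 27.1% and 21.0% of cells). Klre1 had 35.7, 34.9, 54.3 and 47.3 CPM. Klrb1c was at 4.40 to 10.9 CPM and Ncr1 at 2, 5, 9 and 0 UMIs over all CD8+ T cells of a library, the last of which allows a share of up to 0.852% of 352 cells with a captured UMI and sets no limit on cells that express the gene. In B cells, which do not express these receptors, Klrd1 was at 0.54 to 1.0 CPM in 0.394% to 0.657% of cells (median 5869.5 to 8606.5 UMIs per cell), so the level in CD8+ T cells (7051.5 to 8883.5 UMIs) was far above free RNA. The ratio of Klrd1 to Ncr1 UMIs was 1.23 to 1.52 in NK cells but 765, 257 and 193 in CD8+ T cells of P-LC24, P-HC24 and I-LC32.

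Splitting CD8+ T cells by Ccl5, a chemokine gene of effector and memory cells, separated the first 2 tiers. In cells without a Ccl5 UMI (239, 288, 198 and 85 cells), Klrd1 was still at 236, 198, 178 and 200 CPM and was detected in 76.6%, 69.1%, 60.1% and 52.9%. Klrk1 was at 9.03 to 11.2 CPM there, and Klrc1, Klrc2 and Klre1 at 5 UMIs or fewer per library. In cells with at least 2 Ccl5 UMIs and no Pdcd1 (253, 278, 498 and 169 cells), Klrk1 was at 143, 137, 287 and 254 CPM, Klrc1 at 86.5, 91.6, 110 and 104 CPM and Klre1 at 65.0, 67.9, 73.9 and 75.4 CPM. Klrd1 was at 267, 276, 282 and 246 CPM there. It was detected in 77.9%, 80.2%, 73.1% and 72.2% of these cells, and the intervals of the shares with and without Ccl5 overlapped only in P-LC24. Klrd1 was thus detected in a lower share without Ccl5 in the other 3 libraries but still found in most cells. Klrc1, Klrc2 and Klre1 were found almost wholly in cells with Ccl5. The shares are unthinned, and the cells with Ccl5 and no Pdcd1 were deeper. Their median was 9743, 9122.5, 8225 and 7643 UMIs, against 9069, 8169.5, 7830.5 and 7430 without Ccl5. The intervals of the Klrd1 level overlapped in P-LC24 and in I-HC32 (167 to 237 CPM without and 221 to 273 CPM with Ccl5). Cells with Ccl5 and Pdcd1, the gene of the checkpoint receptor PD-1, numbered 92, 22, 90 and 86 and held Klrk1 at 121, 283, 354 and 346 CPM and Klrc1 at 53.3, 148, 118 and 85.1 CPM. In single thinned CD8+ T cells, Klrc2 was detected in 40.4%, 23.4%, 44.9% and 31.4% of Klrc1-positive cells and in 3.77%, 3.33%, 9.65% and 5.06% of Klrc1-negative cells. The part of reads shared between the 2 genes in this pairing was not tested. Klrk1, which shares no such window, was detected in 40.4%, 38.3%, 61.2% and 57.1% of Klrc1-positive cells against 10.1%, 7.18%, 20.6% and 16.1%.

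**Figure D5:**
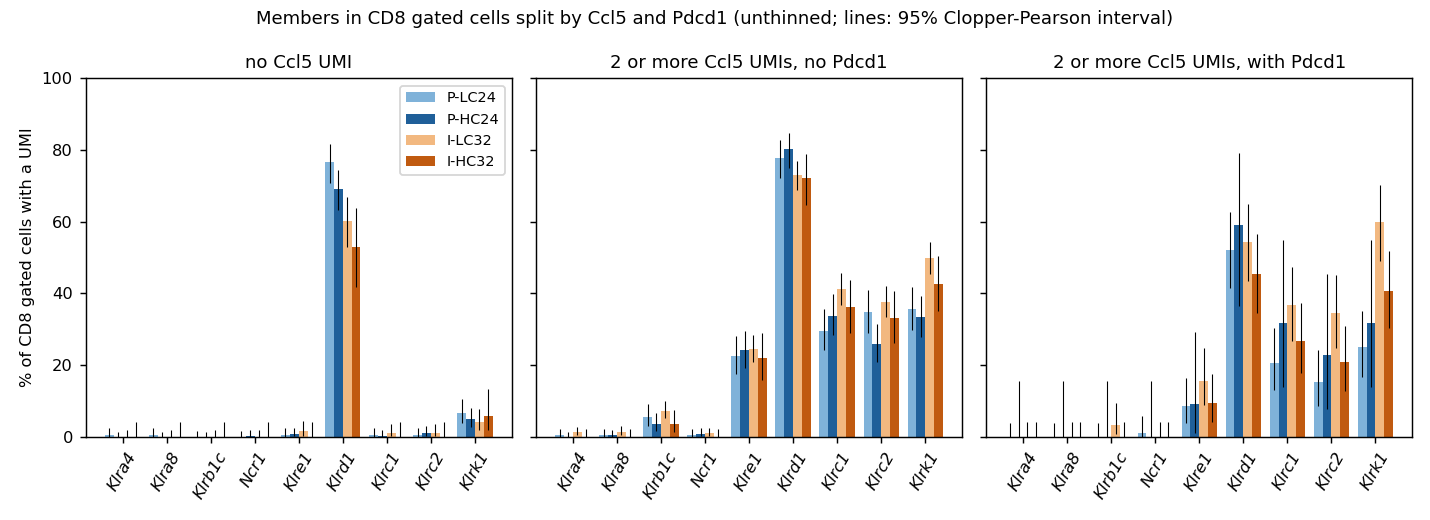
Percentage of CD8 gated cells with a UMI of each receptor, by library, in cells without Ccl5, with at least 2 Ccl5 UMIs and no Pdcd1, and with both Ccl5 and Pdcd1, unthinned, with 95% Clopper-Pearson intervals. Klrd1 is at 52.9% to 76.6% in cells without Ccl5, where Klrk1 is at 4.04% to 6.69% and the other 7 receptors lie near 0.

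Between the arms, 5 of the 9 receptors had enough UMIs in CD8+ T cells to be compared, and Klrc2 alone passed 1.2-fold, lower in the high cholesterol arm at both weeks. In Prog 169 of its UMIs were counted with high and 264 with low cholesterol, a log2 ratio of -0.52 (-0.80 to -0.23). Over all 7024 genes compared, 47.1% were at least 1.2-fold lower and 11.1% higher, with a median of -0.24, so a lower value was the common case in this comparison. Among the 3644 of these genes with at least as many UMIs as the least counted receptor, 47.3% were lower and 10.9% higher. Klrd1 (-0.13, -0.23 to -0.02), Klrk1 (-0.03), Klre1 (-0.03) and Klrc1 (0.14) lay above that median. With the size factor that centres on it, Klrc1 was 1.2-fold higher and Klrc2 still lower. In Int, Klrc2 had 183 UMIs in I-HC32 and 595 in I-LC32, a log2 ratio of -0.36 (-0.61 to -0.12). Here 11.3% of 7034 genes were lower and 23.4% higher, with a median of 0.07, and among the 2919 best counted 7.91% were lower and 17.1% higher. All 5 receptors lay below that median, with Klre1 at -0.20, Klrc1 at -0.19, Klrd1 at -0.18 and Klrk1 at -0.10, and their summed level with the other 4 differed by -0.21 (-0.29 to -0.13). The 2 comparisons involve separate libraries of the same animals.

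The makeup of the CD8 gate differed between libraries, as cells without Ccl5 made up 37.7%, 46.6%, 24.3% and 24.1% of it and cells with Ccl5 and Pdcd1 14.5%, 3.56%, 11% and 24.4%. Within cells with Ccl5 and no Pdcd1, Klrc2 had 90.4, 60.6, 118 and 99.3 CPM. Its Prog ratio there was -0.58 (-0.88 to -0.28), as large as in the whole gate. The Int ratio was -0.25 (-0.53 to 0.02), an interval that included 0. For Klrc1 the same cells gave 0.08 in Prog and -0.08 in Int, for Klre1 0.06 and 0.03, for Klrd1 0.05 and -0.20, and for Klrk1 -0.06 and -0.18. Among these 5 receptors Klrc2 had the ratio furthest from 0 in both comparisons. In Int, however, the intervals of Klrd1 (-0.37 to -0.02) and Klrk1 (-0.35 to -0.01) excluded 0, and both overlapped that of Klrc2. In cells with Ccl5 and Pdcd1, of which P-HC24 held 22, the Prog ratio of Klrc2 turned to 0.45 (-0.83 to 1.60), with Klrc1 at 1.47, Klrk1 at 1.22 and Klrd1 at -1.04, and the Int ratio of Klrc2 was -0.42, with an interval that included 0. RNA of myeloid cells also differed, and Lyz2 was detected in 8.04%, 47.1%, 8.95% and 70.2% of CD8+ T cells, whose part in these ratios was not tested.

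Klra4 and Klra8 gave an uneven picture in CD8+ T cells. In I-LC32 there were 72 UMIs of the pair in 11 of 816 cells, and 65 of these came from 6 cells, the highest with 39. All 6 cells held Cd8b1, 3 held Klrb1c, and their median depth was 10305 UMIs. P-LC24 had 8 UMIs in 6 cells, P-HC24 had 2 in 1 cell, and I-HC32 had none in 352 cells, which allows up to 0.852% of cells with a captured UMI. All CD8+ T cells with 3 or more such UMIs were from I-LC32, at a number too small to compare. In I-LC32, 1 of the CD8 gated cells held UMIs of all 9 receptors, and whether the 6 cells were undetected doublets was not tested.

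The receptors were also found in innate-like T cells, gated as CD3-positive cells without Cd4 and CD8 that held Zbtb16 or a gamma or delta T cell receptor gene. Their summed level there was 1969, 1245, 1306 and 743 CPM in 65, 73, 125 and 68 cells. Klrk1 stood at 610, 315, 463 and 344 CPM, Klrd1 at 385, 331, 300 and 146 CPM and Klrc2 at 310, 184, 165 and 58.5 CPM. Klrk1 was the highest in 3 of the 4 libraries and Klrd1 in P-HC24. Klrb1c, which also marks NKT cells, had 169, 75.7, 76.8 and 37.6 CPM, and Ncr1 57.6, 14.4, 23.1 and 0 CPM. All 9 genes had their highest level of the 4 libraries in P-LC24, with Klra4 and Klra8 found there only (8 and 14 UMIs). CD4+ T cells held 48.2 to 78.2 CPM of all 9 together and B cells 0.946 to 3.10 CPM. Of all UMIs in kept cells, the NK gate held 83.5% to 93.2% of those of Klra4, 86.0% to 92.2% for Klra8, 86.2% to 90.4% for Ncr1 and 69.1% to 82.1% for Klrb1c. For Klrd1 it held 20.1% to 36.9%, while CD8+ T cells held 39.9% to 49.7%. Klrc1 UMIs lay mainly in NK cells in P-LC24 (48.1%) but in CD8+ T cells in the other 3 libraries (45.1% to 54.5%). Klrk1 UMIs were at 49.4% in the NK gate and 18.3% in the CD8 gate in P-LC24, and at 24.4% and 43.2% in I-LC32. Cells in none of the gates held 4.95% to 13.0% of the UMIs of Klra4 and Klra8 per library, 15.9% to 28.9% of those of Klrd1 and 17.1% to 28.8% of those of Klrk1, in each case more than innate-like T cells did.

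Between week 24 and week 32 the same animals were sampled again, so age, diet phase and library cannot be told apart. In NK cells both Klra genes were lower at week 32, Klra4 with a log2 ratio of -0.67 (-0.82 to -0.52) in the low and -0.83 (-1.06 to -0.61) in the high cholesterol arm, and Klra8 with -0.62 and -1.09. Also lower in both arms were Klrb1c (-0.42 and -0.33), Klre1 (-0.28 and -0.32), Klrd1 (-0.15 and -0.31) and Ncr1 (-0.11 and -0.28). The Ncr1 interval included 0 in the low arm. Klrc2 stood at -0.32 and 0.02. The week ratios were computed for the 9 receptors only, so no value over all genes stands beside them. Klrk1 was higher in both arms, with ratios of 0.28 and 0.36. Klrc1 went apart, at -0.32 in the low arm and 0.58 in the high arm. The makeup of the NK gate differed as well, and cells with Eomes made up 56.6%, 52.7%, 48.6% and 39.7% of it. In cells with Eomes, Klra4 stood at 1165, 1306, 629 and 1252 CPM and Klra8 at 1050, 1105, 761 and 863 CPM. There Klra4 was thus similar at both weeks in the high arm, with 23 such cells in I-HC32. The part of gate makeup in the NK week ratios was not tested. In CD8+ T cells the log2 ratios of week 32 over week 24 were 1.46 (1.31 to 1.62) and 1.40 (1.21 to 1.58) for Klrk1, 0.95 and 1.11 for Klrc2, 0.90 and 0.57 for Klrc1, and 0.60 and 0.44 for Klre1. Klrd1 was at -0.04 and -0.10, with intervals that included 0. Klrk1, Klrc2, Klrc1 and Klre1 were found mostly in cells with Ccl5, and the share of cells without Ccl5 was lower at week 32. The part of this makeup in the ratios was not tested. Within cells with Ccl5 and no Pdcd1, Klrk1 stood at 287 and 254 CPM at week 32 against 143 and 137 CPM at week 24. Klrc2 stood there at 118 and 99.3 CPM against 90.4 and 60.6 CPM, and Klrc1 at 110 and 104 CPM against 86.5 and 91.6 CPM. Klre1 was within 65.0 to 75.4 CPM in all 4 libraries.

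Other genes of the receptor system were read from lists drawn up by function. Of 19 further receptors of the NK gene complex, 9 could be compared in NK cells in Prog, and 0 were at least 1.2-fold higher and 4 lower, with a median of -0.24, beside 20.9% higher and 38.4% lower over all genes. The most abundant was Klrb1b, an inhibitory receptor, with 453, 330, 427 and 565 CPM, whose ratio was -0.45 in Prog and 0.40 in Int. The lowest ratio in Prog was that of Klra7 (Ly49G2, an inhibitory Ly49 receptor) at -0.65 (-0.95 to -0.35). In Int, 2 of 8 were higher and 2 lower, beside 20.7% and 19% of all genes. Of 14 other surface receptors, 0 of 11 compared were higher and 8 lower in Prog, with a median of -0.53 beside -0.13 over all genes, and in Int 3 of 10 were higher and 3 lower. Among these Il2rb, a chain of the receptors for IL-2 and IL-15 and 1 of the 8 genes of the NK gate, was the most abundant at 703 to 898 CPM, and Cd226, an activating receptor for nectin-like ligands, had the lowest Prog ratio at -0.82. In CD8+ T cells none of the 19 reached the minimum, and of the 14 surface receptors 7 of 10 were lower and 0 higher in Prog, where 47.1% of all genes were lower, and 3 lower and 2 higher in Int, where 11.3% were lower and 23.4% higher.

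Among 18 adaptors and proximal signalling genes, 16 were compared in NK cells in Prog, of which 4 were higher and 6 lower, beside 20.9% and 38.4% of all genes. Tyrobp, the adaptor of the Klra4 and Klra8 products, was the most abundant at 2148, 3085, 1997 and 1821 CPM, a Prog ratio of 0.52 (0.43 to 0.61) and an Int ratio of -0.13. Hcst, the adaptor of the Klrk1 product, had 538, 659, 501 and 377 CPM, a ratio of 0.29 in Prog and -0.41 in Int, and was singled out after its values were seen. The lowest Prog ratio was that of Plcg2, a phospholipase of the same signalling chain, at -0.61. Tyrobp is also a gene of myeloid cells, and Lyz2, a myeloid marker, was detected in 8.85%, 38.5%, 8.57% and 72.4% of NK cells. The summed myeloid markers were 269, 263, 263 and 400 CPM in NK cells, with C1qa and Csf1r limited by the gate, and their part in the Tyrobp ratio was not tested. In CD8+ T cells, 9 of 14 compared genes of this list were lower in Prog, beside 47.1% of all genes, and Tyrobp alone was higher, at 4.57, 18.8, 14.0 and 13.2 CPM.

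Ligand genes were read in all kept cells. H2-T23, whose product is the ligand of CD94 paired with NKG2A or NKG2C, had 187, 253, 199 and 199 CPM and was detected in 68.2% to 79.5% of cells. The classical MHC class I genes H2-D1 (1126, 1704, 1302 and 1794 CPM) and H2-K1 (1132, 1218, 1302 and 1403 CPM), whose products bind several Ly49 receptors, were far more abundant. Of the ligands of NKG2D, the Klrk1 product, Raet1e was well detected at 56.0 to 88.5 CPM, while H60b stood at 0.633 to 3.42 CPM, Ulbp1 at 4.56 to 10.7 CPM and Raet1d and H60c at 18 UMIs or fewer per library. Clec2d, the ligand of the Klrb1b product, had 116, 66.9, 61.1 and 52.3 CPM. Clec2i, the last gene of this list, had 48.3, 26.4, 44.4 and 29.7 CPM. In NK cells themselves 5 of 10 ligand genes were compared, with 2 higher and 1 lower in both Prog and Int, beside 20.9% higher and 38.4% lower of all genes in Prog and 20.7% and 19% in Int. Raet1e had 89.8, 89.1, 69.5 and 151 CPM there, an Int ratio of 1.12 (0.55 to 1.69). These levels mix cell types, whose shares differed between libraries.

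The genes most like the 9 receptors in their pattern were sought over 20 points, the 5 gates in 4 libraries, by Pearson's r between log2(CPM + 10) of each gene and the mean of the receptors. Among 4767 genes the closest were Serpinb6b (0.990), Efhd2 (0.986), Klra7 (0.985), Tmem37 (0.983) and Padi2 (0.978). The points share libraries and the NK gate is the highest of them for these genes, so r is a description with no test.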

How the data were processed

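RNA of liver non-parenchymal cells was measured in 4 single-cell libraries (10x Genomics 3′), 1 per condition, each pooling 3 mice. Per the labels, the deposited values are UMI counts, not normalized, for every gene in every cell, made with Cell Ranger 9.0.1 on GRCm39. The study corrected its own matrices for free RNA with SoupX and filtered them in Seurat 5.3, whereas the deposited counts used here are whole numbers without that correction. Totals were 50941106 to 89257239 UMIs per library.

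From these counts, cells with at least 500 UMIs, 300 genes and at most 10% mitochondrial UMIs were kept, and the top Scrublet scores (scanpy 1.11.5), 0.8% per 1000 cells, were removed as doublets. Gates used raw UMIs. NK cells had no CD3 UMI and at least 3 of 8 NK genes (Nkg7, Gzma, Prf1, Eomes, Tbx21, Il2rb, Txk, Ccl5), CD8+ T cells had at least 2 CD3 UMIs, a CD8 UMI and no Cd4, and both had at most 1 B and 1 myeloid marker UMI. The gamma chain genes listed as Tcrg-C1, Tcrg-C2 and Tcrg-C4 were read as Trgc1, Trgc2 and Trgc4.

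UMIs were summed per gate and library and given as CPM with exact Poisson intervals, shares of cells with exact Clopper-Pearson intervals, and ratios with conditional binomial intervals, all at 95% (Python 3.11.15, numpy 2.4.6, pandas 2.3.3, scipy 1.17.1, matplotlib 3.10.9). With 1 library per condition no p-value was computed. The ratio calculation was tested on simulated Poisson counts. These held neither uneven counts between cells nor a spread between mice, so the test covers the calculation alone. A share at 0 allows up to 3 counts of the total. The named genes are the 9 receptors and, of each list, those with the highest mean CPM and the highest or lowest ratio, any other being said to be singled out. All genes of the ligand list and some cell type markers were named outside this rule. Alternatives changed the cell filters, gates, scaling, free RNA, fold and minimum counts. The receptors and the gene lists were chosen with earlier results of these data known. Gene positions come from GENCODE vM39 (GRCm39, 9 of 9 identifiers matched), and promoters from RefSeq (GRCm38.p6, 8 of 9 genes found, not Klrd1), placed in GRCm39 by exact match.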

Additional observations from a re-analysis of the deposited data

Results flagged for a closer look

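Klrc1 in NK cells lay on opposite sides in the 2 comparisons, which were made with separate libraries. Its level was 254 CPM in P-HC24 (117 UMIs in 91 cells) and 319 CPM in P-LC24 (469 UMIs in 226 cells), a log2 ratio of -0.33 in Prog, while 380 CPM in I-HC32 (133 UMIs in 58 cells) and 255 CPM in I-LC32 (209 UMIs in 140 cells) gave 0.57 in Int. The difference between the 2 ratios was not tested, since each condition had 1 library. The share of Klrc1-positive NK cells was 38.5% (28.4% to 49.3%) in P-HC24 and 53.1% (46.4% to 59.8%) in P-LC24, and 58.6% (44.9% to 71.4%) in I-HC32 and 47.9% (39.4% to 56.5%) in I-LC32. Within cells with Eomes the ratios were -0.07 and 0.82.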

How the results depend on the processing

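Of 316 ratios of single receptors under the alternatives, 295 stayed within the counting interval of the reported value. Direction was checked only where the reported ratio was at least 1.2-fold. The count of 295 includes ratios that could hardly change. Keeping doublets left the same 58 and 140 NK cells of I-HC32 and I-LC32. Needing 4 of 8 NK markers left the same 91 and 226 of P-HC24 and P-LC24. The subtracted B cell level was at most 1.0 CPM for any receptor, beside 254 CPM or more in NK cells. As mean UMIs per cell, 7 ratios moved and 2 reversed. Of 148 sums and counts of receptors past the fold, 121 stayed the same. For sums the rule was that of the ratios, and for counts it was a value equal to or within 1.5-fold of the reported count. No paired analysis was possible because each condition had 1 library with a single replicate number, and for the same reason no replicate could be left out. As mean UMIs per cell, the summed NK ratio in Prog was -0.24 with 0 receptors higher and 6 lower (Klra8 at -0.069 and Klrd1 at -0.056), and the CD8 sums were -0.19 in Prog and -0.34 in Int, the latter with 4 lower. As the mean of per-cell CPM, the NK Prog sum was 0.061 and 2 receptors were lower in CD8 Int. With the median ratio size factor, the Prog sums were 0.26 in NK cells, with 0 lower, and 0.14 in CD8+ T cells, with 1 higher. At 1.5-fold no receptor passed in any of the 4 comparisons in either direction (0). A mitochondrial limit of 5% gave a CD8 Prog sum of -0.25, from 344 cells of P-HC24, and a CD8 gate with at least 2 CD8 UMIs an Int sum of -0.13. A minimum of 20 UMIs without a minimum share of cells gave 1 higher in CD8 Prog and 4 lower in CD8 Int. Of the 3 alternatives chosen after seeing the data, leaving out shared barcodes and leaving out haemoglobin totals moved none of these results, and NK cells with Eomes gave a sum of 0.070 in Prog with 0 higher and 0 lower (Klrc2 at 0.17), and 0.15 in Int with 2 higher and 1 lower. The cause of these shifts was not tested. Shares of positive cells depend on depth, and 51 of 72 moved when cells were thinned to 1000 in place of 2000 UMIs. With 58 to 226 NK cells per library, differences below the intervals given were not detectable at this depth, and no interval covers the spread between mice.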
